A study of Rattus norvegicus with 12 samples.

Results

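Interferon-stimulated genes are the genes that cells switch on when interferon binds its receptor. A list of 38 of them was followed in rat liver, of which 36 had at least 1 probe set on the array (46 probe sets in all) and 33 were bright enough to be tested among 9300 genes. Gbp5 and Xaf1 were not analysed here, and Zbp1, Oas1b and Gbp4 lay under the signal filter. Expression was measured with Affymetrix arrays, 1 array per animal and 12 in all. The germ-free group was 3 Sprague-Dawley rats kept without microbes (animals 1, 3 and 4), set against 3 conventional Sprague-Dawley rats (animals 6, 7 and 8). The antibiotic group was 3 Han Wistar rats (animals 13, 14 and 15) that drank water with streptomycin and penicillin for 8 days, set against 3 untreated Han Wistar rats (animals 1, 2 and 3). The labels give streptomycin at 4 mg/ml and penicillin at 2 mg/ml, without settling whether these hold for the stock or for the diluted drinking water. Age, diet and time of tissue collection are not in the labels, and their effects cannot be told apart from that of the treatment. The comparisons ask what the absence of microbes, or a course of antibiotics, goes with in the liver's transcripts. Values below are MAS5 signals, which carry no unit, listed in the order of the animals just given.

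Type I interferons bind a receptor made of the Ifnar1 and Ifnar2 chains. The kinases Jak1 and Tyk2 then activate Stat2 and other factors, which join Irf9 in a complex that binds a DNA motif called the interferon-stimulated response element (ISRE). Type II interferon instead acts at a motif called the gamma-activated site (GAS). The target genes include sensors of viral nucleic acid, enzymes that block viral replication, and Usp18 and Isg15, which shape the signal itself. In the liver, hepatocytes, endothelial cells and Kupffer cells can all respond.

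Promoters are shown because many of them hold these motifs, which did not enter the choice of the list. RefSeq windows of the GRCr8 assembly, from 250 bases before to 50 bases after each gene start, were present for 28 of the 38 genes. The ISRE core, here GAAA, any 2 bases and GAAA again on either strand, occurred in 18 of the 28 windows (64.3%), against 1312 of all 33469 windows (3.92%) and 271 of 8668 windows of tested genes (3.13%). The GAS motif, TTCNNNGAA, which reads the same on both strands, occurred in 8 of the 28 (28.6%), against 2970 of all windows (8.87%) and 618 of tested genes (7.13%). Among members that rose in germ-free livers the ISRE core occurred in 6 of 10 with a window (60%), and among tested members that did not pass in 8 of 14 (57.1%). The GAS motif occurred in 2 of those 10 (20%) and 5 of those 14 (35.7%). No window was present for Rtp4, Usp18, Isg15 and Mx2, the risers with the highest changes, or for the risers Adar, Dhx58 and Rigi. A match is only a match of letters. The 6 risers with an ISRE core are printed below, 5′ to 3′ on the strand of the gene, with the core in capitals (it reads TTTC, 2 bases, TTTC where it lies on the other strand).

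Irf7, chr1:205800043-205800132, minus strand: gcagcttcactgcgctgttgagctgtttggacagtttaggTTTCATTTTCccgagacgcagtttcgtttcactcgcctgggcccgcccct
Ifih1, chr3:67683978-67684067, minus strand: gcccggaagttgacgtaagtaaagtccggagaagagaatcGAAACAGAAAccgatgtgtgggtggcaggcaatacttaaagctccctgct
Ifit3, chr1:241527242-241527325, plus strand: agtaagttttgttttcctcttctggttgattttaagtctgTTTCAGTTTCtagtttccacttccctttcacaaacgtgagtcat
Cxcl10, chr14:15988816-15988872, plus strand: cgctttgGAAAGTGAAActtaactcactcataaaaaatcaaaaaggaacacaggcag
Eif2ak2, chr6:21941098-21941153, plus strand: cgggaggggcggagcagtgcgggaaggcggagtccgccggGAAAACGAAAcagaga
Lgals3bp, chr10:104127849-104127938, minus strand: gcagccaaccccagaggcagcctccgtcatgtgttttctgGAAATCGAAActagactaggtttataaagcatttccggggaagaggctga

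In Irf7 the core lay 69 to 60 bases before the gene start, in Ifih1 59 to 50, in Ifit3 44 to 35, in Lgals3bp 50 to 41 and in Eif2ak2 16 to 7. That of Cxcl10 lay farther out, 243 to 234 bases before the start. Parp9, the member whose increase was most precise, had no ISRE core and no GAS match in its window, and the 100 bases before its start are given for comparison.

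Parp9, chr11:78319012-78319111, minus strand: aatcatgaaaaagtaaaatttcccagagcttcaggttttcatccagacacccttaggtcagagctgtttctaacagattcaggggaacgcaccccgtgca

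**Figure D1:**
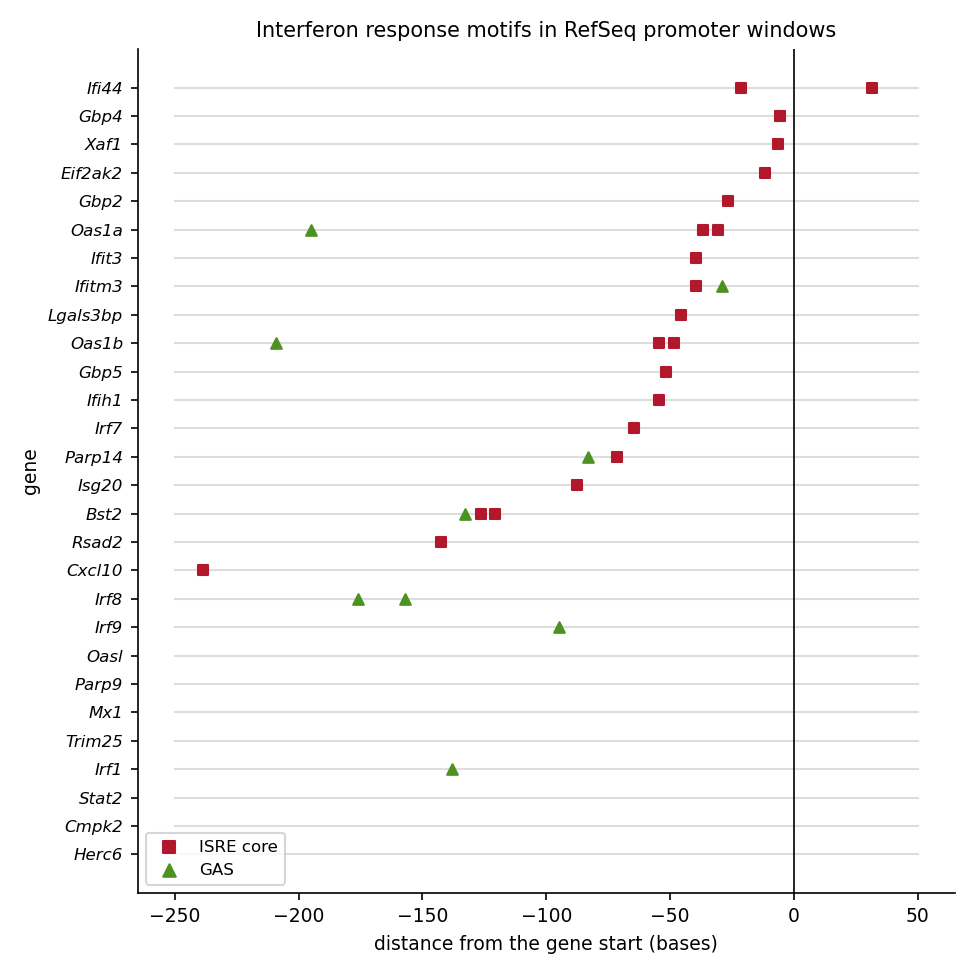
Positions of the ISRE core (squares) and the GAS motif (triangles) in the promoter windows of the 28 listed genes that had one, as distance in bases from the gene start, with one line per gene. The core is present in 18 of the 28 windows.

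In germ-free livers 17 of the 33 tested members rose, 0 fell and 16 did not pass limma's test at an adjusted p under 0.05. Over all 9300 genes 6.44% were called higher and 6.74% lower. At an unadjusted p under 0.05, 20 members were higher (14.5% of all genes) and 2 lower, Irf1 and Trim25 (13.6% of all genes). The median log2 fold change of the 33 members was 0.533 on the log2(signal + 16) scale, against 0.025 over all genes, and 29 of the 33 were above 0, against 53.7% of all genes. All 3 germ-free animals lay above all 3 conventional animals for 18 of the 33 (54.5%; 15.4% of all genes), and the reverse held for 1, Irf1 (14.5% of all genes). Of the 33 tested members, 7 rose by over 1 log2 unit (21.2%), against 105 of all 9300 genes (1.13%). Some counts lean on the filter, which took the mean over all 12 arrays: 6 tested members had a group mean under the filter value of 19.67, among them the risers Ifit3, Mx1 and Cxcl10. With no filter 36 members were tested and 15 rose, against 3.64% of genes called higher. On every single probe set 13 of 46 rose and 0 fell, against 2.77% of all 31042 probe sets higher and 2.21% lower. Fold changes of dim genes are understated by the added 16. The set above 1 log2 unit depends on that constant. With 64 added, the changes of Irf7, Irf9 and Mx1 were under 1 (0.92, 0.75 and 0.52). With 1 added, those of Ifit3, Cxcl10 and Parp9 were over 1 as well (1.36, 1.35 and 1.06). Liver was measured as a whole, so that more cells of a type and more RNA per cell cannot be told apart.

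**Figure D2:**
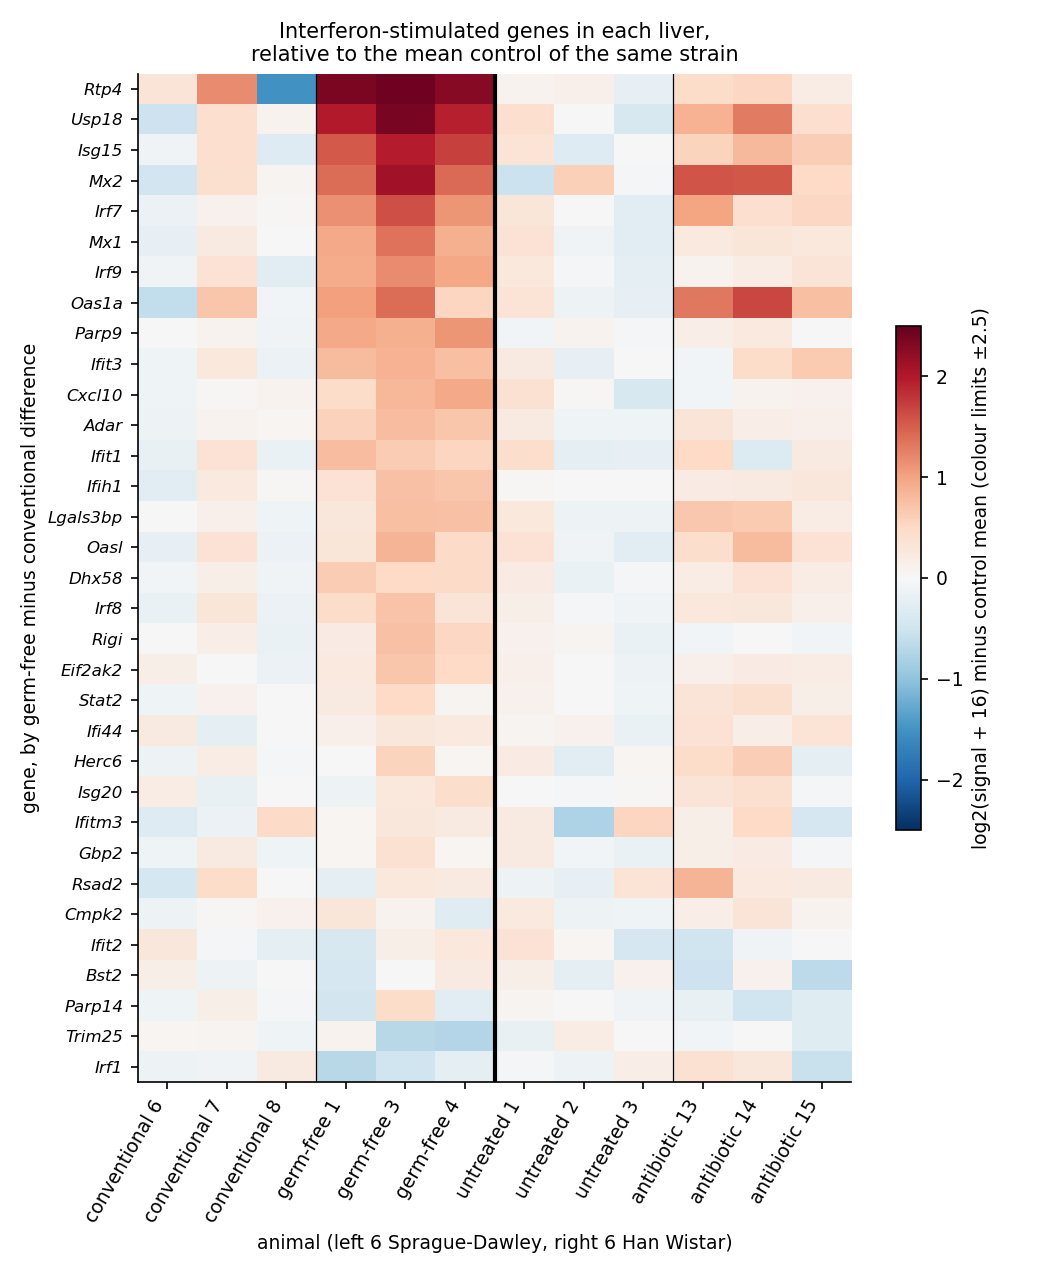
Each of the 33 tested members (rows, ordered by their germ-free minus conventional difference) in each of the 12 livers (columns), as log2(signal + 16) minus the mean of the control group of the same strain. Red is higher and blue lower, with the colour limits at ±2.5. The upper rows are red in all 3 germ-free livers, while the antibiotic columns are paler in many of these rows but not all. Oas1a stood at 1.32, 1.67 and 0.76 in antibiotic livers against 1.03, 1.40 and 0.55 in germ-free livers. Mx2 stood at 1.58, 1.56 and 0.50 against 1.40, 2.09 and 1.42.

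Among the signalling and transcription factors, 3 of 5 rose in germ-free livers. Irf7, the factor that amplifies type I interferon production, had signals of 159.2, 225.9 and 154.1 in the germ-free animals against 56.2, 70.1 and 64.8 in the conventional ones (log2 1.28 ± 0.19 SE, adjusted p = 0.000655 by limma). Irf9, the DNA-binding part of the complex with Stat2, had 164.3, 197.6 and 169.2 against 72.5, 105.7 and 62.7 (log2 1.02 ± 0.16, adjusted p = 0.00115). The groups did not overlap for either gene, and a second Irf9 probe set rose as well (log2 1.07). Irf8, best known from myeloid cells, had 86.8, 107.6 and 77.4 against 51.3, 76.7 and 51.7, so that germ-free animal 4 lay just above conventional animal 7 (log2 0.50 ± 0.15, adjusted p = 0.0413). The Irf8 call was lost when any of 8 animals was left out: germ-free 1 or 3, conventional 6 or 8, untreated 2, or any of the 3 antibiotic animals (adjusted p up to 0.175). It passed in 9 of 23 alternatives, and was also lost with no filter, quantile normalization, median centring, array weights, its own 6 arrays or the actin ratio, a measure of RNA quality, as a covariate.

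Stat2 and Irf1 did not pass in germ-free livers. Stat2, the factor that joins Irf9, had 284, 345.8 and 255.4 against 223, 261 and 240.8 (log2 0.26 ± 0.12, adjusted p = 0.179), with overlapping groups. Irf1, an early target of interferon-gamma signalling, had the opposite sign, with 93.5, 110.2 and 133.7 against 146, 151 and 190.3 (log2 -0.48 ± 0.21, adjusted p = 0.152). All 3 germ-free animals thus lay below all 3 conventional ones for Irf1. It passed as lower when antibiotic animal 15 was left out, since all 12 arrays share 1 estimate of the spread.

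Usp18 and Isg15, which act on the signal itself, were among the members with the highest changes. Usp18, the protease that removes Isg15 from proteins and dampens the receptor, had 221.4, 293.8 and 216.7 in germ-free against 26.2, 64.8 and 47.8 in conventional livers (4.29-fold on signal + 16, log2 2.10 ± 0.26, adjusted p = 0.000216). Isg15, the ubiquitin-like modifier, had 171.5, 237.9 and 195.4 against 44.9, 70.8 and 35.6 (3.33-fold, log2 1.74 ± 0.20, adjusted p = 0.000121). For both genes the lowest germ-free signal was more than double the highest conventional one. Herc6, a ligase that attaches Isg15 in rodents, was dim in every group and did not pass (13.3, 27.8 and 14.5 against 11.3, 17.6 and 12.5, log2 0.19 ± 0.23). Trim25, the ubiquitin ligase that supports Rigi signalling, did not pass either (log2 -0.44 ± 0.18, adjusted p = 0.122). Its germ-free signals of 875.7, 507.2 and 494.9 were widely spread against 855, 862.5 and 768.4, and it passed as lower when germ-free animal 1, the high one, was left out.

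Of the 6 sensors of foreign or altered nucleic acid, 5 were tested and all 5 rose in germ-free livers, each by less than 0.7 log2 units. Ifih1, the receptor for long double-stranded RNA, had 86, 117.3 and 113.6 against 50, 78.5 and 65.6 (log2 0.60 ± 0.14, adjusted p = 0.0132). Rigi, the receptor for RNA with a triphosphate end, had 311.1, 451.6 and 388.9 against 266.5, 298.5 and 236.4 (log2 0.49 ± 0.13, adjusted p = 0.0272). Dhx58, the third member of that helicase family, had 42.6, 37.6 and 36.5 against 20.3, 25.8 and 19.9 (log2 0.53 ± 0.14, adjusted p = 0.0192). The groups did not overlap for any of the helicases, yet each call depended on single animals. Without germ-free animal 3 all 3 helicase calls were lost, and likewise that of Ifih1 without germ-free 4 (adjusted p up to 0.066). That of Rigi was also lost without germ-free 4, conventional 6 or conventional 8 (up to 0.131), and that of Dhx58 without germ-free 1, conventional 6 or conventional 8 (up to 0.0572). On the 6 Sprague-Dawley arrays alone, or with the actin ratio as a covariate, none of the 3 helicases passed.

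Eif2ak2, the kinase PKR that halts translation on double-stranded RNA, had 79.2, 113.7 and 96.8 against 73.4, 64.1 and 56.1 (log2 0.48 ± 0.13, adjusted p = 0.0291). Its call was lost without germ-free 3, germ-free 4, conventional 7 or conventional 8 (adjusted p up to 0.136), on the 6 Sprague-Dawley arrays alone (0.0897) and with the actin ratio as a covariate (0.259). Adar, the editing enzyme that keeps cellular RNA from triggering these sensors, had 94.1, 110.7 and 103.4 against 51.8, 62.6 and 60.6 (log2 0.68 ± 0.13, adjusted p = 0.00343), and its call held when any animal was left out. Adar and Dhx58 each had 3 probe sets, which disagreed. The other Adar probe sets changed by 0.24 and 0.02, and those of Dhx58 by 0.25 and 0.02. The probe set used for Dhx58 carries the array's mark for possible reading of other sequences. Averaging the probe sets of a gene ended both calls (adjusted p = 0.0585 for Adar and 0.35 for Dhx58). Zbp1, a sensor of left-handed nucleic acid, lay under the filter with a mean signal of 17.0 over all arrays.

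Of the 3 oligoadenylate synthetase genes, whose products activate an RNA-degrading enzyme, 2 were tested and neither passed in germ-free livers. Oas1a had 88.4, 118.6 and 58.7 against 17.2, 66.6 and 32.8 (log2 0.99 ± 0.31, adjusted p = 0.0526). The groups overlapped through germ-free animal 4 and conventional animal 7, and Oas1a passed without either of them and without antibiotic animal 15. Oasl had 40.2, 65.9 and 47.6 against 23.6, 42.4 and 25 (log2 0.54 ± 0.21, adjusted p = 0.103). Oas1b was dim, with a mean signal of 3.51. Rat Oas1 genes are close copies of each other, so the signal of any one of them is uncertain.

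One of the 3 IFIT genes, whose products bind viral RNA, passed. Ifit3 had 35, 37.8 and 33.8 in germ-free against 11.4, 19.3 and 10.5 in conventional livers (log2 0.80 ± 0.19, adjusted p = 0.0143). Its conventional mean of 13.7 lay under the filter, and an added constant of 1 or 64 in place of 16 gave a log2 change of 1.36 or 0.36. The call was lost without germ-free 3 or conventional 8 (adjusted p = 0.0553 and 0.0513). Ifit1 had 40.9, 35.3 and 32 against 13.1, 26.7 and 13.5, without overlap, but did not pass (log2 0.64 ± 0.24, adjusted p = 0.0881). Ifit2, their neighbour on chromosome 1, was brighter and had a log2 change of 0.00 ± 0.22, with 92.1, 142.6 and 157.2 against 158.1, 123.7 and 105.6. The 3 genes thus had unlike values, although related sequences could share signal.

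Both Mx genes, GTPases that trap viral components, rose. Mx1 had 44.6, 64.8 and 42.4 against 11.1, 20.8 and 15 (log2 1.07 ± 0.19, adjusted p = 0.00212). Mx2 had 132.7, 224.9 and 134.9 against 24.7, 58.2 and 43.6 (log2 1.64 ± 0.33, adjusted p = 0.00537). Germ-free animal 3 was the highest animal for both. A second, dimmer Mx2 probe set changed by -0.29 ± 0.39, and with the mean of both probe sets Mx2 did not pass (adjusted p = 0.106). Gbp2, a GTPase of the guanylate-binding family that is a classical interferon-gamma target, did not pass (33.7, 47.1 and 34.2 against 28.7, 40.3 and 28.9, log2 0.16 ± 0.16). Its neighbour Gbp4 lay under the filter with a mean signal of 16.3.

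**Figure D3:**
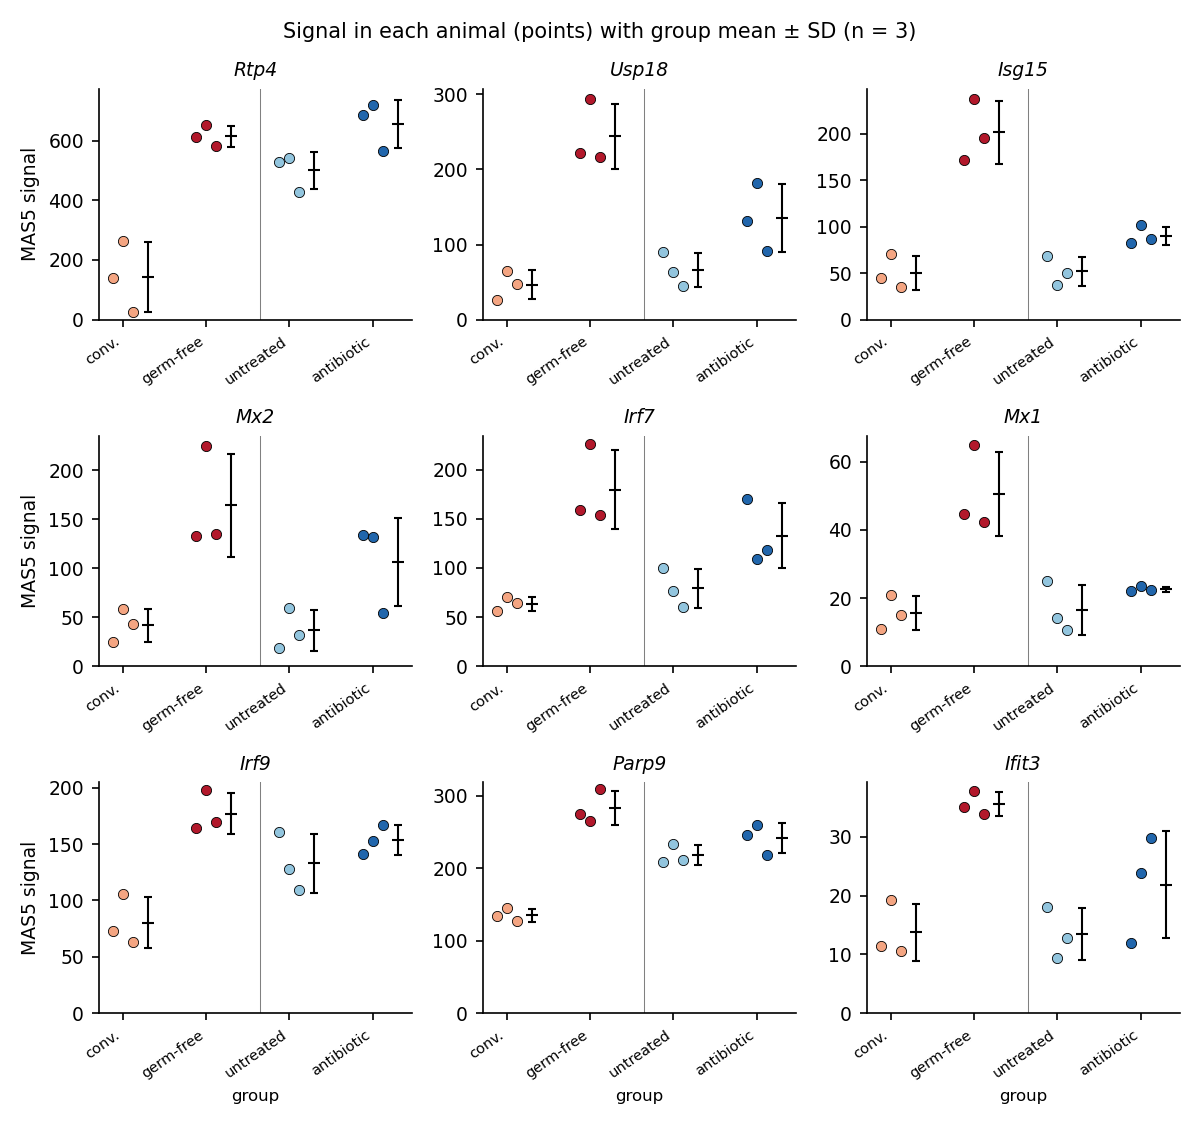
MAS5 signal of the 9 members with the highest germ-free log2 fold change among those that rose, one panel per gene, each with its own axis from 0. Points are animals and the bars beside them the group mean ± SD (n = 3). In each panel the germ-free points lie above all conventional points.

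Only 1 of the 6 membrane, nucleotide and RNA effectors passed, and it had the highest change of all members. Rtp4, a chaperone of membrane receptors that interferon induces, had 611.5, 650.5 and 580.4 in germ-free against 138.3, 262.6 and 27.2 in conventional livers (5.12-fold on signal + 16, log2 2.36 ± 0.44, adjusted p = 0.00344). The conventional animals differed far more among themselves than the germ-free ones, with an SD of 118 on a mean of 143. Rsad2, the antiviral enzyme viperin, had 85.5, 125.9 and 122.2 against 71.6, 146 and 101 (log2 0.09 ± 0.24). Cmpk2, the nucleotide kinase encoded next to Rsad2, changed by 0.03 ± 0.17.

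The other effectors did not pass either. Bst2, the tether that holds budding virus at the cell surface, changed by -0.06 ± 0.20, and Ifitm3, which blocks viral entry, by 0.19 ± 0.30. Both were bright, with group means of 726 and 893 in germ-free livers. Isg20, an RNA-degrading exonuclease, changed by 0.19 ± 0.17. The 95% interval of the log2 change ran from -0.48 to 0.36 for Bst2, from -0.46 to 0.83 for Ifitm3, from -0.42 to 0.59 for Rsad2 and from -0.34 to 0.40 for Cmpk2. Increases of the size seen for Usp18, Isg15 and Mx2 lay outside all 4 intervals.

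Of the 5 other responsive genes tested, 3 rose. Parp9, an ADP-ribosyltransferase family member that works with the ligase Dtx3l, had 274.4, 264.6 and 308.9 against 133.8, 144.5 and 126.9 (log2 0.98 ± 0.11, adjusted p = 7.19e-05). Its animals were tightly grouped on both sides, and its SE was the lowest among the members. Cxcl10, the chemokine that attracts T and NK cells, was dim, with 20.1, 30.8 and 34.7 against 8.4, 11 and 11.9 (log2 0.74 ± 0.19, adjusted p = 0.0202). With 1 or 64 added in place of 16 the Cxcl10 change was 1.35 or 0.31, and its call was lost without germ-free 3, germ-free 4 or conventional 6 (adjusted p up to 0.077). Lgals3bp, a secreted galectin-binding glycoprotein, had 69.7, 103.4 and 102.1 against 54.4, 61.4 and 49.4 (log2 0.59 ± 0.17, adjusted p = 0.0398). Its call was lost without germ-free 3, germ-free 4 or any conventional animal (adjusted p up to 0.151), and with no filter, quantile normalization, median centring, the 6 Sprague-Dawley arrays alone or the actin ratio as a covariate. Ifi44 (log2 0.22 ± 0.14) and Parp14, a relative of Parp9 (log2 -0.09 ± 0.18), did not pass.

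Parp9, Dtx3l and Parp14 are next to each other on chromosome 11 in the RefSeq gene order. Dtx3l rose by 0.94 ± 0.11 (adjusted p = 0.00014), with 3 germ-free animals above all conventional ones, close to the change of Parp9, while the 2 probe sets of Parp14 changed by -0.09 and 0.28. Neighbours elsewhere were mixed too, with Mx1 and Mx2 both called, Rsad2 and Cmpk2 both not called, and Ifit3 called beside Ifit2.

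The animals of a group did not have the same level. Germ-free animal 3 was the highest of its group for 23 of the 33 members and conventional animal 7 for 24. As the median over the 33 members of log2(signal + 16) relative to the conventional mean, the germ-free animals stood at 0.302, 0.72 and 0.492, and the conventional ones at -0.113, 0.141 and -0.058. Every germ-free animal thus lay above every conventional one. The same median over all genes lay between -0.028 and 0.033 in all 6 animals. Without germ-free animal 3, 9 members rose (3.28% of all genes), and without conventional 8, 11 (4.85% of all genes). On the 6 Sprague-Dawley arrays alone 11 rose (4.38% of all genes). Of the 17 that rose, Irf7, Irf9, Usp18, Isg15, Mx1, Rtp4 and Parp9 passed under every one of the 24 alternatives that tested them.

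Under antibiotics 0 of the 33 members passed in either direction, against 0% of all genes called higher and 0.0215% lower. At an unadjusted p under 0.05, 8 of the 33 were higher (24.2%), against 5.63% of all genes, and 0 were lower, against 4.78%. These 8 were Stat2, Irf7, Usp18, Isg15, Oas1a, Oasl, Mx2 and Lgals3bp. The median log2 change was 0.231 (0.002 over all genes), and 28 of the 33 were above 0, against 50.3% of all genes. The antibiotic animals all lay above the untreated ones for 9 members (27.3%, against 9.19% of all genes) and all below for 1, Parp14 (9.12% of all genes). Of the 17 members that rose in germ-free livers, 16 had a positive value here, with a median of 0.244. As the median over the 33 members relative to the untreated mean, the antibiotic animals stood at 0.267, 0.288 and 0.178. The untreated ones stood at 0.211, -0.054 and -0.111, so that untreated animal 1 lay above antibiotic animal 15. Untreated animal 1 was the highest of its group for 24 of the 33 members.

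Oas1a and Mx2 had the highest antibiotic changes. Oas1a had 98.4, 130.1 and 61.7 in antibiotic against 42.4, 25.8 and 23.7 in untreated livers (log2 1.25 ± 0.31, adjusted p = 0.177 by limma). Mx2 had 133.9, 131.8 and 55 against 18.7, 59.4 and 32.3 (log2 1.21 ± 0.33, adjusted p = 0.199), with antibiotic animal 15 below untreated animal 2. The second Mx2 probe set disagreed, with 74.4, 7.4 and 23.5 against 39.3, 30.4 and 35.3 (log2 -0.22 ± 0.39). Usp18 had 131.1, 182.5 and 91.9 against 90.7, 63.6 and 44.6 (log2 0.87 ± 0.26, adjusted p = 0.258). In Oas1a and Usp18 the groups did not overlap, though the gap for Usp18 was small.

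Isg15 had 82.3, 101.4 and 86.8 under antibiotics against 68.4, 37.4 and 50.6 (log2 0.66 ± 0.20, adjusted p = 0.258). Irf7 had 170.6, 109.5 and 118 against 100.1, 76.9 and 60.7 (log2 0.64 ± 0.19, adjusted p = 0.249). Neither group pair overlapped. Lgals3bp had 105.7, 103.2 and 70.7 against 75.2, 53.1 and 53.5 (log2 0.51 ± 0.17, adjusted p = 0.319), and Oasl 51.1, 70 and 48.1 against 48, 30.9 and 25.1 (log2 0.53 ± 0.21, adjusted p = 0.398). Stat2 changed by 0.28 ± 0.12 (adjusted p = 0.449).

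Rtp4, which led in germ-free livers, had 685.2, 718.6 and 564.6 under antibiotics against 529.4, 542.7 and 427.9 in untreated livers (log2 0.38 ± 0.44, adjusted p = 0.828). The groups did not overlap, but the shared estimate of the spread includes the wide conventional group. Rigi, Cxcl10 and Parp9 had values near 0 under antibiotics (-0.05 ± 0.13, 0.04 ± 0.19 and 0.14 ± 0.11). The 95% interval of the log2 change had a median width of ±0.4 over the 33 members and reached ±0.949 for Rtp4. The 8 members at an unadjusted p under 0.05 had intervals above 0 and still did not pass, since p-values were adjusted over all 9300 genes.

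**Figure D4:**
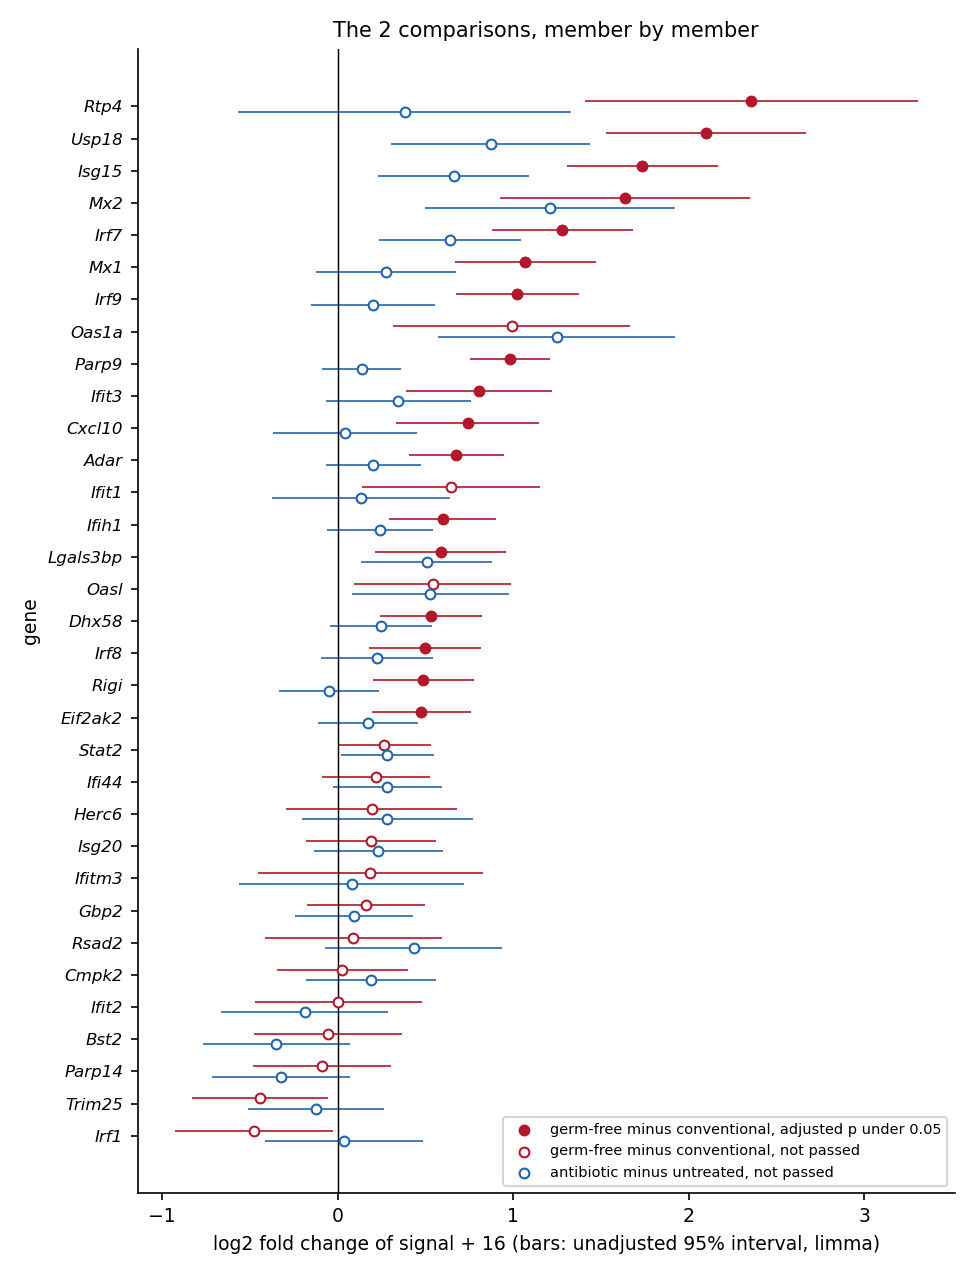
Log2 fold change of signal + 16 with its unadjusted 95% interval for the 33 tested members, germ-free minus conventional (red) and antibiotic minus untreated (blue). Filled points passed at an adjusted p under 0.05: 17 red and no blue ones.

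Tested directly, the difference between the comparisons passed for 2 members, both with the higher change in germ-free livers, against 2.69% of all genes higher and 3.25% lower. For Parp9 the germ-free change exceeded the antibiotic change by 0.85 ± 0.15 (adjusted p = 0.00488 by limma), a call that held under all 23 alternatives. For Isg15 it did so by 1.07 ± 0.28 (adjusted p = 0.0402), a call lost in 13 of 23 alternatives. Among animals, leaving out germ-free 3 or 4, conventional 6 or 8, untreated 1 or 3, or any antibiotic animal ended it. Rtp4 (1.97 ± 0.63), Usp18 (1.23 ± 0.37) and Irf9 (0.82 ± 0.23) did not pass (adjusted p = 0.0804, 0.0703 and 0.0528), and all 3 passed without conventional animal 7. Without conventional 8, Rtp4 passed, as did Usp18 without antibiotic 14, Irf9 without untreated 3 and Rigi without germ-free 1. At an unadjusted p under 0.05, 10 of 33 members were higher in the germ-free comparison (30.3%, against 10.8% of all genes). The median difference was 0.288. For Mx2, Oas1a and Lgals3bp the differences were 0.42 ± 0.47, -0.26 ± 0.44 and 0.08 ± 0.25. Strain and experiment differ between the comparisons as well, and their part cannot be told apart from that of the treatment.

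The 4 groups also differed in where the low level lay. The conventional group had the lowest mean signal of the 4 groups for 22 of the 33 members (66.7%), against 32.1% of all genes. It was the lowest for 15 of the 17 that rose, which were called for being higher in germ-free than in conventional livers. Rtp4 is an example, with means of 143 ± 118 (SD, n = 3) in conventional, 614 ± 35.1 in germ-free, 500 ± 62.8 in untreated and 656 ± 81 in antibiotic livers. Eif2ak2, Irf8, Dhx58 and Cxcl10 had untreated Han Wistar means at or above the germ-free ones, for example 111 ± 11 against 96.6 ± 17.3 for Eif2ak2. Usp18, Isg15 and Mx1 did not: Isg15 had 50.4 ± 18.2 in conventional and 52.1 ± 15.6 in untreated livers, against 202 ± 33.6 in germ-free and 90.2 ± 9.99 in antibiotic livers. Strain and experiment cannot be told apart here, and these levels are descriptions with no test. The actin ratio, a measure of RNA quality, differed as well, at 5.37 in conventional and 4.39 in germ-free livers. It was 2.55 in untreated and 2.73 in antibiotic livers, and its part in these levels was not tested.

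Genes that act upstream of the members were read from lists. Of 11 interferon genes, 3 were on the array as analysed (Ifng, Ifnk and Ifnb1), and all were under the filter, with mean signals of 3.75, 1.97 and 1.08. Among 5 tested receptor chains Ifnar2, part of the type I receptor, rose (240.8, 328.6 and 309.9 against 196.2, 206.9 and 180.4, log2 0.54 ± 0.17, adjusted p = 0.0447), and 0 fell. The Ifnar2 call passed in 9 of 24 alternatives, and leaving out any of 9 animals ended it (all but germ-free 1 and antibiotic 13 and 15). None of 12 tested genes of JAK-STAT and interferon regulatory factor signalling passed, Jak1 being nearest (log2 0.32 ± 0.10, adjusted p = 0.0528). At an unadjusted p under 0.05 limma had 3 of these 12 higher and 1 lower (14.5% and 13.6% of all genes). Of 21 listed sensors and adaptors for microbes and nucleic acid 10 were tested. Tlr2, Tlr4, Tlr7, Sting1 and Irak4 lay under the filter, and Tlr3, Tlr9, Cgas, Ikbke, Aim2 and Nod2 were not analysed. Of the 10, 0 rose and 1 fell, against 6.44% of all genes higher and 6.74% lower. At an unadjusted p under 0.05, 1 was higher and 2 lower. Irak1, a kinase of Toll-like receptor signalling, fell (log2 -0.36 ± 0.10, adjusted p = 0.0254). Its call was lost without germ-free 1, germ-free 4, conventional 6 or conventional 7 (adjusted p up to 0.0897 over all alternatives).

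A further list of 60 interferon-responsive genes had 44 tested, of which 8 rose, 2 fell and 34 did not pass, against 6.44% of all genes higher and 6.74% lower, with a median log2 change of 0.247. The 4 with the smallest p were Dtx3l, Tor3a, Znfx1 and Ifi27l2b. Znfx1, a helicase of antiviral defence, had a mean of 114 against 59 (log2 0.80 ± 0.13, adjusted p = 0.00106). Tor3a, a torsin-family ATPase, fell from 128 to 48.2 (log2 -1.18 ± 0.17, adjusted p = 0.000622). Ifi27l2b fell from 1528 to 754 (log2 -1.01 ± 0.18, adjusted p = 0.00287). The remaining risers were Tap1 (0.68), which loads peptides onto MHC class I, the immunoproteasome subunits Psmb8 (0.99) and Psmb9 (0.71), Tdrd7 (0.53), Mov10 (0.62) and Irgm (0.81), named after their values were seen. The Mov10 call was lost without germ-free 3 or conventional 8, and that of Irgm without germ-free 3 or 4 or conventional 6 or 7. Both calls were also lost with the actin ratio as a covariate. Under antibiotics 0 of the 44 passed, with 6 higher and 1 lower at an unadjusted p under 0.05 (5.63% and 4.78% of all genes). The difference between the comparisons passed as higher for Dtx3l (0.81), Znfx1 (0.65), Tap1 (0.70) and Psmb8 (1.12), and as lower for Tor3a (-1.48). Over all genes 2.69% passed as higher and 3.25% as lower. The differences of Dtx3l and Tor3a held when any animal was left out. That of Dtx3l was lost with the actin ratio as a covariate (adjusted p = 0.0688 by limma), as were those of Psmb8, Tap1 and Znfx1. That of Psmb8 was lost without any of 8 animals (all but germ-free 1, conventional 8, untreated 3 and antibiotic 14), that of Tap1 without any of 9 (all but germ-free 1, conventional 8 and untreated 3), and that of Znfx1 without any of 11 (all but antibiotic 15).

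A list of 15 NF-kB subunits and inflammatory genes had 10 tested, among them the subunits Rela, Relb, Nfkb1 and Nfkb2. Tnf, Il6, Ccl2, Cxcl2 and Ptgs2 lay under the filter. Of the 10, 0 fell and 1 rose, against 6.74% of all genes lower and 6.44% higher. This was Vcam1, an adhesion molecule of activated endothelium (log2 1.09 ± 0.16, adjusted p = 0.000713). Its mean signals were 138 in germ-free, 57.1 in conventional, 63.7 in untreated and 85.2 in antibiotic livers.

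Cell type markers were read beside these results. Hepatocyte markers were bright, albumin averaging 9522 in the germ-free and 8091 in the conventional group. In either comparison 0 of 5 tested passed limma's test. At an unadjusted p under 0.05, 1 was higher in germ-free livers (14.5% of all genes) and 4 under antibiotics (5.63% of all genes). Of 9 tested endothelial cell markers 7 rose in germ-free livers and 0 fell, against 6.44% of all genes higher and 6.74% lower. Their summed signal was 1771 to 2453 in germ-free against 883 to 1132 in conventional livers, 1306 to 2435 in untreated and 1754 to 2366 in antibiotic livers, and no marker was at 0 throughout. The change was 1.50 ± 0.22 for Fcgr2b, 1.17 ± 0.23 for Stab2, 1.09 ± 0.24 for Lyve1, 0.96 ± 0.15 for Tek, 0.90 ± 0.15 for Emcn, 0.81 ± 0.17 for Stab1 and 0.77 ± 0.22 for Kdr. The Lyve1 call was lost without antibiotic 14, and that of Kdr without germ-free 1 or 3 or any conventional animal. The part of endothelial cells in the members' increase was not tested.

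Markers of macrophages and Kupffer cells did not rise in germ-free livers. Of 9 tested, 0 rose and 1 fell, against 6.44% of all genes higher and 6.74% lower. Clec4f, a lectin of Kupffer cells, was the marker that fell (log2 -0.64 ± 0.17, adjusted p = 0.0264). That call did not survive the removal of germ-free 1, germ-free 4, conventional 7 or conventional 8. The markers' summed signal was 2193 to 2707 in germ-free, 2348 to 3482 in conventional, 2052 to 2575 in untreated and 2438 to 3383 in antibiotic livers. Under antibiotics 0 of 9 passed, with 6 higher at an unadjusted p under 0.05, against 5.63% of all genes. The dendritic cell markers analysed (4) all lay under the filter, with sums of 26.1 to 50.4 in germ-free and 19.4 to 31.5 in conventional livers. Of 12 T and NK cell markers 2 were tested and 0 passed, with sums of 152 to 184 in germ-free and 106 to 184 in conventional livers. None of the tested stellate cell (9), bile duct (2), B cell (1) or neutrophil (1) markers passed in germ-free livers, where at an unadjusted p under 0.05 only 1, of stellate cells, was lower. The part of these cells in the members' values was not tested.

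Actin has probe sets at its 3' and 5' ends, and the ratio of their signals rises as RNA degrades. By group this ratio was 4.39 ± 0.762 (germ-free, SD, n = 3) against 5.37 ± 0.839 (conventional), with p = 0.2 by a two-sided exact permutation test that can reach 0.1 at the lowest. It was 2.73 ± 0.131 in antibiotic and 2.55 ± 0.123 in untreated livers (exact p = 0.2). With the ratio as a covariate, 9 members rose in germ-free livers instead of 17, and all 9 were among the 17. Over all genes 3.03% were then called higher instead of 6.44%. The 8 members no longer called were Irf8, Ifih1, Rigi, Dhx58, Eif2ak2, Ifit3, Cxcl10 and Lgals3bp. The Gapdh ratio was 1.52 ± 0.286 in germ-free and 1.63 ± 0.164 in conventional livers (exact permutation p = 0.6).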

How the data were processed

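The deposited table holds linear signal intensities, 1 per probe set and array, made with MAS5 per the submitters' processing notes (version not given in the sources used here). They were used as deposited; the trimmed mean (2% at each end) was 100.04 to 100.05 on every array. Of 31099 probe sets 57 were controls, and of the other 31042, 20826 had 1 symbol, 436 several and 9780 none. Current symbols came from the gene identifier for 20758 and from the accession for 2, with 66 left as they were. The filter kept 15523 probe sets whose mean reached the median of 19.67, and the brightest stood for its gene (9300 genes). On log2(signal + 16), limma 3.58.1 (R 4.3.3) fitted 1 mean per group over 12 arrays with an intensity trend, giving two-sided p-values adjusted by Benjamini-Hochberg over all genes tested. The p-values set differences against the spread between animals, and 3 animals a group limit the precision. Arrays of a group correlated at 0.977 to 0.987. The fit was tested on simulated data.

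The members, lists and tests were chosen with earlier results of these data known. Every member is named, with values by animal for each that passed, and up to 4 genes of each pathway list by smallest germ-free p. Alternatives changed the offset, filter, normalization, arrays fitted, variance model, probe set rule and animals, or added the actin ratio.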

Additional observations from a re-analysis of the deposited data

Results flagged for a closer look

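The germ-free and antibiotic changes differed by a direct test for 2 members. For Isg15 the log2 change was 1.74 in germ-free and 0.66 in antibiotic livers, a difference of 1.07 (adjusted p = 0.0402 by limma). It did not pass in 13 of 23 alternatives, 9 of which each left out 1 animal. For Parp9 it was 0.98 and 0.14, a difference of 0.85 (adjusted p = 0.00488 by limma). In Isg15 the antibiotic animals (82.3 to 101.4) lay above the untreated ones (37.4 to 68.4), while in Parp9 those groups overlapped (218.4 to 259.8 against 208 to 233.4). The comparisons were made in different strains, which this test does not separate from the treatments.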

How the results depend on the processing

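In the comparison where it passed, no member changed sign under any of the alternatives that tested it. These were up to 24 for the germ-free comparison and 23 for the difference between the comparisons. The number of members that rose in germ-free livers (17) was 8 with a 75th percentile filter, which tested 15 members, 11 on the 6 Sprague-Dawley arrays alone and 9 with the actin ratio as a covariate. It ranged from 9 to 17 when 1 animal was left out. The number that fell (0) was 1 with array weights and 0 to 1 with 1 animal left out. The median germ-free change (0.533) was 0.709 with an offset of 1, 0.311 with an offset of 64 and 0.448 to 0.649 with 1 animal left out. The members with a higher change in germ-free than antibiotic livers (2) numbered 1 with an offset of 1, with no filter, with array weights or with the actin ratio, 3 with a 75th percentile filter or a robust prior, and 1 to 5 with 1 animal left out, and those with a lower change 0 to 1. The median difference was 0.058 with the actin ratio and 0.195 to 0.415 with 1 animal left out. Under antibiotics 0 members passed in every alternative, with a median of 0.135 to 0.317. Except where the alternative itself tested fewer genes or arrays, the cause was not tested. No paired analysis was possible because the groups compared share no animal numbers. Signals near the filter value limit Ifit3, Mx1, Cxcl10, Ifit1, Herc6 and Isg20.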
